A study of Mus musculus with 12 samples.

Results

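Kirrel3, Cd36 and H2bc4, grouped as genes of olfactory sensory neurons with low activity, were described in cells sorted from the olfactory mucosa of mice. A gene was represented by the probe set (the group of array probes summarised as 1 value) that the array annotation pairs with its symbol alone, which gave 1 probe set for each of the 3 genes, out of 19938 genes in all. The mice carried S100a5-tauGFP, a fluorescent reporter of S100a5, a calcium-binding protein gene whose transcription in sensory neurons follows their activity. The study used 18 mice of both sexes, 7 to 12 weeks old, each housed alone in a clean air chamber for 40 h with air flowing at 3.1 L/min. From 26 h on, the odor mice received pulses of a citrus accord (5% per the series title) lasting 10 s at intervals of 20 min, and the vehicle mice received filtered air by the same schedule. Cells were pooled from 3 mice, and each of the 6 pools was split by the sort into a GFP-positive and a GFP-negative fraction, hybridised to 1 array each. The 4 groups were thus vehicle GFP-negative, vehicle GFP-positive, odor GFP-negative and odor GFP-positive, with 3 arrays each. All groups, vehicle included, came from reporter mice kept in the same chambers, and no group lacked the reporter. The accord's composition, the gates of the sort and how the reporter was placed in the genome remain not given in the sources used here. Pools keep their title numbers, which are 2, 3 and 4 for odor and 1, 2 and 4 for vehicle.

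Kirrel3 and its relative Kirrel2 encode adhesion molecules of the immunoglobulin superfamily that sit on the axons of sensory neurons and bind like molecules on neighbouring axons. They are known for complementary expression in the olfactory epithelium, with Kirrel2 more abundant in neurons whose receptor is often active and Kirrel3 in those whose receptor is not, and for a part in sorting axons into glomeruli. Cd36 encodes a membrane receptor for fatty acids and oxidised lipids, present in a subset of sensory neurons and also in macrophages, capillary endothelium and fat cells. H2bc4 (older symbol Hist1h2bc) encodes a canonical histone H2B. The H2B variant known to accumulate in sensory neurons that are seldom active, H2BE, is the product of another gene, H2bc21 (older symbol Hist2h2be), which is given beside H2bc4. S100a5, Omp (the marker of mature sensory neurons) and Kirrel2 serve as references.

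All values are log2 as deposited, and differences are on that scale. A gene is called where its adjusted p is under 0.05 in limma, fitted to all genes and adjusted over them by Benjamini-Hochberg. The array medians lay between 7.04 and 7.20. S100a5 itself differed little across the sort, from 6.08 to 6.23 in vehicle GFP-negative and from 6.29 to 6.48 in vehicle GFP-positive cells (difference 0.19, SE 0.10, adjusted p 0.123), and by 0.31 in odor mice (SE 0.10, adjusted p 0.0166). Its values on the 12 arrays, from 5.83 to 6.48, all lay below the array medians. A small difference at so low a signal does not show how far S100a5 RNA follows the reporter. The mean of 9 markers of mature sensory neurons, Omp among them, lay between 12.31 and 12.61 in GFP-negative and between 12.91 and 12.96 in GFP-positive cells. The GFP-negative fraction thus gave a strong signal for mature neuron markers as well, and markers of several other cell types were higher in it. Means of 16 macrophage and myeloid markers lay between 9.44 and 10.02 there and between 7.02 and 7.60 in GFP-positive cells, means of 12 neutrophil markers between 11.76 and 12.26 against 7.26 to 8.54, and means of 7 sustentacular cell markers between 10.70 and 11.10 against 8.59 to 9.14. Other lists were mixed in either treatment. Of 7 respiratory and tuft cell markers 3 were called higher and 4 lower in GFP-positive cells, and of 5 immature sensory neuron markers 2 and 3. Of 7 fibroblast and stromal markers 1 was lower and 6 did not pass. Over all genes 29.9% and 33.5% were called higher in vehicle and odor mice, and 18.2% and 18.7% lower. In such bulk samples, fewer cells of a type and less RNA per cell cannot be told apart.

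Across the sort, all 3 genes were higher in the cells with the activity reporter in the deposited values, in vehicle and in odor mice. The increase was close to 2-fold for Cd36, about 1.5-fold for H2bc4 and about 1.3-fold for Kirrel3. Markers of mature neurons were higher, and markers of myeloid, neutrophil and sustentacular cells lower, in the same fraction. The direction of the 3 genes is therefore no test of the low-activity label. For Kirrel3 the calls and the direction depended on how the arrays were scaled. Each gene was higher in the GFP-positive fraction of all 6 pools. Such a pattern was common on these arrays: 29.9% of all genes were called higher in GFP-positive cells of vehicle mice, 33.5% in odor mice, 25.6% in both, and 36.1% were higher in all 6 pools. Being called higher therefore does not set the 3 genes apart from the background.

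Genes known to depend on activity did not all follow the reporter. Of 16 such genes 8 were called higher, 6 lower and 2 did not pass in vehicle mice. In odor mice 9 were called higher, 6 lower and 1 did not pass. The share of all genes called higher was 29.9% in vehicle and 33.5% in odor mice, and that called lower 18.2% and 18.7%. Lrrc3b (1.36 and 1.40) and Kirrel2 (1.25 and 1.35) were among those higher. The immediate early genes Nr4a1 (-2.95 and -2.84), Fos (-2.66 and -2.86) and Egr1 (-2.32 and -2.41) were lower in GFP-positive cells, as was Camk1d, a calcium-dependent kinase gene (-1.64 and -1.78). Markers of myeloid, neutrophil and sustentacular cells were lower in the same fraction, and the part of these cells in these differences was not tested. The list's median was 0.22 and 0.33 in the deposited values, against 0.06 and 0.13 over all genes. With arrays centred on 9 mature neuron markers it was -0.23 and -0.15, against -0.40 and -0.35 over all genes. The list's median thus lay above that of all genes on both scales, a difference that was not tested.

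**Figure D1:**
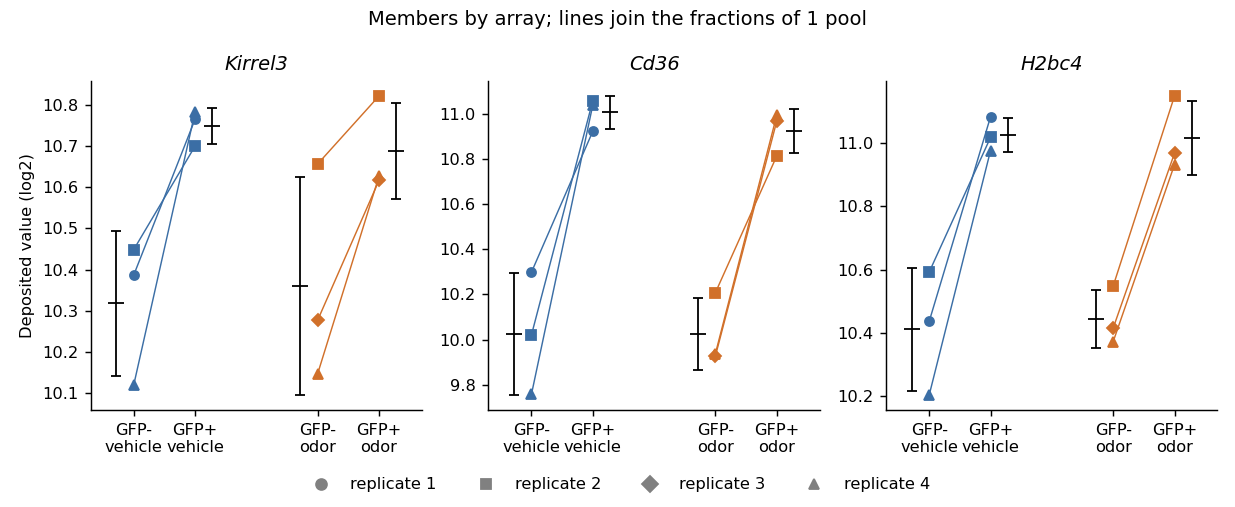
Deposited log2 values of Kirrel3, Cd36 and H2bc4 on the 12 arrays, with vehicle mice in blue and odor mice in orange, symbols for the replicate numbers in the titles, lines joining the fractions of 1 pool, and bars for the mean and SD of 3 arrays. Every line rises from GFP-negative to GFP-positive cells, and for Kirrel3 the odor groups overlap because the GFP-negative array of odor replicate 2, at 10.66, lies above 2 odor GFP-positive arrays.

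Kirrel3 was measured by probe set 10584165. In vehicle mice its 3 GFP-negative arrays read 10.39, 10.45 and 10.12 (replicates 1, 2 and 4) and the GFP-positive arrays of the same pools 10.76, 10.70 and 10.78. In odor mice the GFP-negative arrays read 10.66, 10.28 and 10.15 (replicates 2, 3 and 4) and the GFP-positive arrays 10.82, 10.62 and 10.63. The vehicle groups did not overlap, as for 35.3% of all genes, which had every GFP-positive above every GFP-negative array. The odor groups did overlap, unlike those of 40.4% of all genes, since odor replicate 2 was high in both fractions. In order of their means, the groups were vehicle GFP-negative (10.32 ± 0.17, SD, n = 3), odor GFP-negative (10.36 ± 0.26), odor GFP-positive (10.69 ± 0.12) and vehicle GFP-positive (10.75 ± 0.04). Within a fraction, the means of both treatments differed by less than the larger of their SDs.

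Kirrel3 was 1.35-fold higher in GFP-positive cells of vehicle mice (difference 0.43, SE 0.13, 95% interval 0.16 to 0.70, adjusted p 0.0125 by limma). The rise in odor mice was 1.26-fold (difference 0.33, SE 0.13, 95% interval 0.06 to 0.60, adjusted p 0.0441). Within pools the difference ran from 0.17 (odor replicate 2) to 0.66 (vehicle replicate 4). Both calls were lost with cyclic loess scaling of the arrays (0.14, adjusted p 0.280, in vehicle and 0.05, adjusted p 0.722, in odor mice) and with a second quantile normalization (0.29, adjusted p 0.0637, and 0.23, adjusted p 0.117). The vehicle call was also lost without the GFP-negative array of vehicle replicate 4 (0.33, adjusted p 0.0598). The odor call was lost without any 1 of the 3 odor GFP-positive arrays or of the odor GFP-negative arrays of replicates 3 and 4 (0.22 to 0.36, adjusted p 0.0613 to 0.183), and without any 1 of the vehicle GFP-positive arrays or the GFP-negative array of vehicle replicate 1 (adjusted p 0.0538 to 0.0570).

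Kirrel2, the relative reported in active neurons, differed more than Kirrel3 across the same sort. Its vehicle arrays read 10.75, 11.12 and 10.72 in GFP-negative and 12.00, 12.38 and 11.97 in GFP-positive cells (replicates 1, 2 and 4). The odor arrays read 11.03, 10.90 and 10.63 in GFP-negative and 12.04, 12.31 and 12.26 in GFP-positive cells (replicates 2, 3 and 4). The fractions lay apart in both treatments, as for 35.3% of all genes in vehicle and 40.4% in odor mice in that direction. The difference was 1.25 (SE 0.14, adjusted p 2.21e-05 by limma) in vehicle and 1.35 (SE 0.14, adjusted p 1.02e-05) in odor mice. In each of the 6 pools the within-pool difference of Kirrel2 (1.01 to 1.63) was above that of Kirrel3 (0.17 to 0.66). The contrast between both genes was thus one of size and not of opposite direction in the deposited values. That contrast itself was not tested.

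The other measured members of the nephrin family and its partners moved mostly the same way. Of 8 genes besides Kirrel3, 6 were called higher, 1 lower and 1 did not pass in vehicle mice, and 7 were higher and 1 lower in odor mice, with a median difference of 0.60 and 0.65 against 0.06 and 0.13 over all genes, of which 29.9% and 33.5% were higher. The 3rd gene of the Kirrel family, Kirrel, which encodes a podocyte slit diaphragm protein, was higher by 0.80 and 0.75. Nphs1, which encodes nephrin, was higher by 0.66 and 0.87, and Tjp1, Magi1 and Cask, which encode scaffold proteins of cell junctions and synapses, were higher by 0.43 to 0.77. Nck1, an adaptor that binds phosphorylated nephrin, was the exception and was lower (-0.40 in vehicle and -0.57 in odor mice), as were 18.2% of all genes in vehicle and 18.7% in odor mice. With cyclic loess scaling 6 genes were higher and 1 lower in both treatments. Of all 19938 genes 3857 were higher and 4942 lower in vehicle mice on that scale, with 3835 against 5286 in odor mice. With arrays centred on 9 mature neuron markers, a scale used for the 3 genes as well, 2 of the 8 were called each way in vehicle mice. In odor mice 4 were called higher against 1 lower, and Cask turned to -0.05. Of all genes 6.69% and 5.61% were higher on the centred scale and 64.5% and 58.3% lower.

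Cd36 was measured by probe set 10528207 and had the widest separation of the 3 genes. In vehicle mice the GFP-negative arrays read 10.30, 10.02 and 9.76 (replicates 1, 2 and 4) and the GFP-positive arrays 10.92, 11.06 and 11.04. The odor GFP-negative arrays read 10.21, 9.93 and 9.94 (replicates 2, 3 and 4) and the GFP-positive arrays 10.81, 10.97 and 10.99. No GFP-negative array reached the lowest GFP-positive array, 10.81, and the vehicle and odor arrays of each fraction overlapped. Within a treatment, 35.3% of all genes in vehicle and 40.4% in odor mice had every GFP-positive above every GFP-negative array. The groups of either fraction had like means, 10.03 ± 0.27 in vehicle and 10.02 ± 0.16 in odor GFP-negative cells (SD, n = 3), and 11.01 ± 0.07 in vehicle and 10.92 ± 0.10 in odor GFP-positive cells.

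The fold change of Cd36 across the sort was 1.97 in vehicle mice (difference 0.98, SE 0.12, 95% interval 0.71 to 1.25, adjusted p 4.66e-05 by limma). It was 1.87 in odor mice (difference 0.90, SE 0.12, 95% interval 0.63 to 1.17, adjusted p 8.42e-05). Within pools the difference was 0.62, 1.04 and 1.28 in vehicle replicates 1, 2 and 4 and 0.61, 1.04 and 1.06 in odor replicates 2, 3 and 4. Vehicle replicate 1 and odor replicate 2 thus had the smallest differences, and their GFP-negative arrays had the highest Cd36 values of that fraction. Both calls held in every alternative that was run, with differences from 0.42 to 1.13.

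Markers of other cell types that use Cd36 were mostly lower in GFP-positive cells or did not pass. Over all genes, 18.2% were called lower in vehicle and 18.7% in odor mice, and 29.9% and 33.5% higher. Of 16 macrophage and myeloid markers 15 were called lower there in vehicle mice and 16 in odor mice, and none higher. Of 12 endothelial markers 5 were lower in either treatment and none higher, with array means of 6.56 to 6.72 in GFP-positive and 6.91 to 7.08 in GFP-negative cells. Of 7 adipocyte markers 1 was lower in vehicle mice, and 1 was higher and 1 lower in odor mice, with array means between 6.72 and 6.93 on all arrays. Of 5 platelet and erythroid markers 1 was higher and 3 lower in vehicle mice and 2 were lower in odor mice. The platelet chemokine gene Ppbp was the one higher (0.39, adjusted p 0.0120 by limma), and Pf4, another platelet chemokine gene, was lower in both (-0.24 and -0.49). How much those cells added to the Cd36 signal of the GFP-negative arrays was not tested.

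The rest of the fatty acid uptake and lipid scavenging list did not follow Cd36. Of 27 other genes 4 were called higher, 11 lower and 12 did not pass in vehicle mice, and 6 were higher, 11 lower and 10 did not pass in odor mice, with a median difference of -0.13 and -0.04. Over all genes 29.9% and 33.5% were higher and 18.2% and 18.7% lower. The lowest were Acsl5, an acyl-CoA synthetase, with differences of -2.12 in vehicle and -2.19 in odor mice, and Scarb1, the lipoprotein receptor related to Cd36, with -1.56 and -1.89. Msr1 and Olr1, scavenger receptors of macrophages and endothelium, were lower as well (-1.42 and -1.26 in vehicle mice), and Msr1 is also on the myeloid marker list. Fabp7, a fatty acid-binding protein that is also on the ensheathing glia list, fell by 0.78 in vehicle mice, and Lpl, lipoprotein lipase, fell by 0.72. Among those higher were Acsl6, a synthetase abundant in neural tissue (0.59 and 0.66), and Slc27a1, a fatty acid transporter (0.44 and 0.34), both named after their values were seen. The balance of the list depended on the scale, as did that of all genes. With the arrays centred on their medians 8 were higher and 7 lower in vehicle mice, with 11 against 7 in odor mice and medians of 0.02 and 0.10. Of all 19938 genes 9348 were higher and 2844 lower in vehicle mice on that scale, with 11702 against 3051 in odor mice and medians of 0.20 and 0.27. Centred on mature neuron markers none of the list was higher and 21 and 20 were lower. Of all genes 6.69% and 5.61% were higher there and 64.5% and 58.3% lower.

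RefSeq's table for GRCm38.p6 held a promoter for Cd36 and for S100a5 and was matched by symbol. Both are shown to set the sequence before the member with the largest sort difference beside that of the gene behind the reporter. Each is the 250 bases before the annotated start of transcription, 5′ to 3′ on the gene's own strand, and capitals mark matches to the motifs searched on both strands.

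Cd36, chr5:17835897-17836146, minus strand: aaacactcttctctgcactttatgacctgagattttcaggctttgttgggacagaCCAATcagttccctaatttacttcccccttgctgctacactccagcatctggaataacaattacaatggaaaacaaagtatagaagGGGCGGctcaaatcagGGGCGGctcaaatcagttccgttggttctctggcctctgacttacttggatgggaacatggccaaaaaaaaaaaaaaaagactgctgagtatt

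S100a5, chr3:90608272-90608521, plus strand: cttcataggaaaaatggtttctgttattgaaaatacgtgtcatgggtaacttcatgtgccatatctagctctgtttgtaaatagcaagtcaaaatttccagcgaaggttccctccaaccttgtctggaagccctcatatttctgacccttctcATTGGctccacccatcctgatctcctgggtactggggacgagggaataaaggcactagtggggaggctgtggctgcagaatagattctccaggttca

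The GC box GGGCGG matched at 2 places before Cd36, starting 109 and 93 bases before the start, and at none before S100a5, and 32.7% of 32851 promoters of that length hold it. CCAAT matched 1 time in each, beginning 195 bases before the start of Cd36 and, on the opposite strand, 97 bases before that of S100a5, and 33.9% of promoters hold it. The half-site of the cAMP response element, TGACG (17.8% of promoters), the homeodomain core TAATTA (4.84%) and the TATA core TATAA (22.8%) matched in neither sequence. These are matches of letters in 1 window and show no binding.

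H2bc4 was measured by probe set 10404053. Its vehicle arrays read 10.44, 10.59 and 10.20 in GFP-negative and 11.08, 11.02 and 10.98 in GFP-positive cells (replicates 1, 2 and 4). Its odor arrays read 10.55, 10.42 and 10.37 in GFP-negative and 11.15, 10.97 and 10.93 in GFP-positive cells (replicates 2, 3 and 4). The highest GFP-negative array, 10.59, lay below the lowest GFP-positive array, 10.93, and treatments overlapped within each fraction. Within a treatment, 35.3% of all genes in vehicle and 40.4% in odor mice were separated in that direction. The means were 10.41 ± 0.20 in vehicle and 10.45 ± 0.09 in odor GFP-negative cells, and 11.02 ± 0.12 in odor and 11.03 ± 0.05 in vehicle GFP-positive cells (SD, n = 3).

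H2bc4 was 1.53-fold higher in GFP-positive cells of vehicle mice (difference 0.62, SE 0.10, 95% interval 0.40 to 0.83, adjusted p 0.00029 by limma) and 1.49-fold higher in odor mice (difference 0.57, SE 0.10, 95% interval 0.35 to 0.79, adjusted p 0.000466). Its pools were the most alike of the 3 genes in odor mice, with differences of 0.60, 0.55 and 0.56, and ranged from 0.43 to 0.77 in vehicle mice. H2bc21, the gene of H2BE (probe set 10494388), differed by nearly the same amount. Its vehicle arrays read 11.71, 11.66 and 11.49 in GFP-negative and 12.23, 12.17 and 12.29 in GFP-positive cells (replicates 1, 2 and 4), and the odor arrays 11.83, 11.42 and 11.53 against 12.22, 12.06 and 12.33 (replicates 2, 3 and 4). The fractions did not overlap, as for 35.3% of all genes in vehicle and 40.4% in odor mice in that direction. The difference was 0.61 (SE 0.11) in either treatment, with adjusted p 0.000559 in vehicle and 0.00052 in odor mice.

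H2B genes are near-copies of one another, and H2bc4 is also among the symbols of 7 further probe sets, each shared by 14 or 15 symbols of which 13 or 14 are H2B genes. Probe sets 10403959 and 10408087 of these held identical values. These shared probe sets went the other way from H2bc4's own: they were lower in GFP-positive cells in all 6 pools, with a mean difference of the 7 from -0.76 (odor replicate 2) to -1.27 (odor replicate 3). In a fit over all 35556 probe sets, added after seeing the data, each of the 7 was called lower in both treatments (adjusted p 1.8e-05 to 0.000141), as were 4980 of all probe sets in vehicle and 5151 in odor mice. In that fit H2bc4's own probe set stayed called higher (adjusted p 0.000883 and 0.00131), while Kirrel3 was called in vehicle mice (adjusted p 0.0251) and not in odor mice (adjusted p 0.0723).

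Among 11 other H2B genes with a probe set of their own, 2 were called higher, 4 lower and 5 did not pass in vehicle mice, and 1 was higher, 4 lower and 6 did not pass in odor mice, against 29.9% and 33.5% of all genes higher and 18.2% and 18.7% lower. With arrays centred on their medians 4 were higher and 3 lower in vehicle mice, with 3 against 4 in odor mice. Of all 19938 genes 9348 were higher and 2844 lower in vehicle mice on that scale, with 11702 against 3051 in odor mice. Centred on mature neuron markers none of the 11 was higher and 9 and 10 were lower. Of all genes 6.69% and 5.61% were higher there and 64.5% and 58.3% lower. H2bc21 was the gene higher in both, and H2bu1-ps, a pseudogene, was higher by 0.22 in vehicle mice. Those lower were H2bc3 (-1.38 in vehicle and -1.76 in odor mice), H2bc14 (-1.12 and -1.36), H2bc9 (-0.68 and -0.53) and H2bc18 (-0.42 and -0.64). Canonical H2B genes are copied mainly in dividing cells. Of 11 genes of dividing cells 10 were called lower in GFP-positive cells in either treatment, against 18.2% and 18.7% of all genes. Mki67, a marker of proliferation, was among them (-3.48 and -3.72). The part of dividing cells in the differences of H2B genes was not tested. Near-identical sequence makes the value of any single H2B gene uncertain. With the arrays centred on their medians H2bc18 fell by 0.27 in vehicle mice and was no longer called (adjusted p 0.0639).

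**Figure D2:**
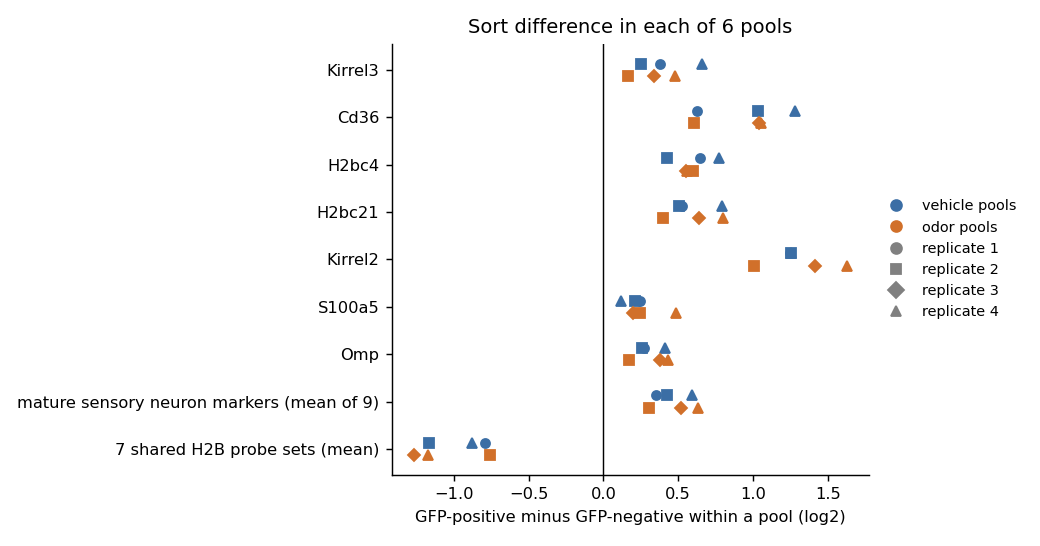
Difference between GFP-positive and GFP-negative cells within each of the 6 pools (log2), for Kirrel3, Cd36, H2bc4, H2bc21, Kirrel2, S100a5 and Omp, the mean of 9 mature neuron markers and the mean of the 7 probe sets shared by H2B genes. Vehicle pools are blue, odor pools orange, and symbols give the replicate number. All rows lie above 0 except the shared H2B probe sets, which lie between -1.27 and -0.76, and the 3 vehicle points of Kirrel2, between 1.25 and 1.26, lie on one another.

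Markers of mature sensory neurons also differed across the sort. Of the 9 markers 8 were called higher in GFP-positive cells in either treatment and none lower, against 29.9% and 33.5% of all genes higher, and their mean was higher by 0.30 to 0.63 within pools. With cyclic loess scaling 5 were higher and none lower in vehicle mice, with 4 against 1 in odor mice, and Omp differed by 0.04 (adjusted p 0.538) and 0.0036 (adjusted p 0.965). Set against that mean in each pool, Cd36 rose further in all 6 pools, by 0.27 to 0.69. H2bc4 rose further in 4 of 6, with values from -0.07 to 0.30. Kirrel3 rose less in 4 of 6, with values from -0.18 to 0.07.

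With each array centred on its mean of those 9 markers, a scale added after seeing the data, Cd36 remained called higher in vehicle (0.52, 95% interval 0.31 to 0.73, adjusted p 0.000713) and odor mice (0.42, 0.21 to 0.63, adjusted p 0.00315). H2bc4 was no longer called (0.16, adjusted p 0.144, and 0.09, adjusted p 0.414), nor was H2bc21 (0.15, adjusted p 0.161, and 0.13, adjusted p 0.240). Kirrel3 turned to -0.03 in vehicle (95% interval -0.23 to 0.18, adjusted p 0.809) and to -0.16 in odor mice (-0.36 to 0.05, adjusted p 0.154). Kirrel2 stayed called at 0.80 and 0.87 (adjusted p 0.000263 and 0.000119), while Omp turned to -0.14 and -0.16 (adjusted p 0.104 and 0.0836). S100a5, the gene of the reporter used in the sort, was called lower on this scale in vehicle mice (-0.27, adjusted p 0.0390) and not in odor mice (-0.18, adjusted p 0.153). Its deposited values were all below the array medians. On this scale 6.69% of all genes were called higher in vehicle and 5.61% in odor mice, and 64.5% and 58.3% lower, and the median gene moved from 0.06 to -0.40 in vehicle and from 0.13 to -0.35 in odor mice. The 9 markers did not move together on this scale: 1 was called higher and 1 lower in vehicle mice, and 2 each way in odor mice. Ano2 was higher (0.33 and 0.28) and Stoml3 lower (-0.34 and -0.37), and the centred values of Kirrel3 and H2bc4 lay within that spread. The direction of Kirrel3 across the sort thus depended on the scale, and that of Cd36 did not.

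**Figure D3:**
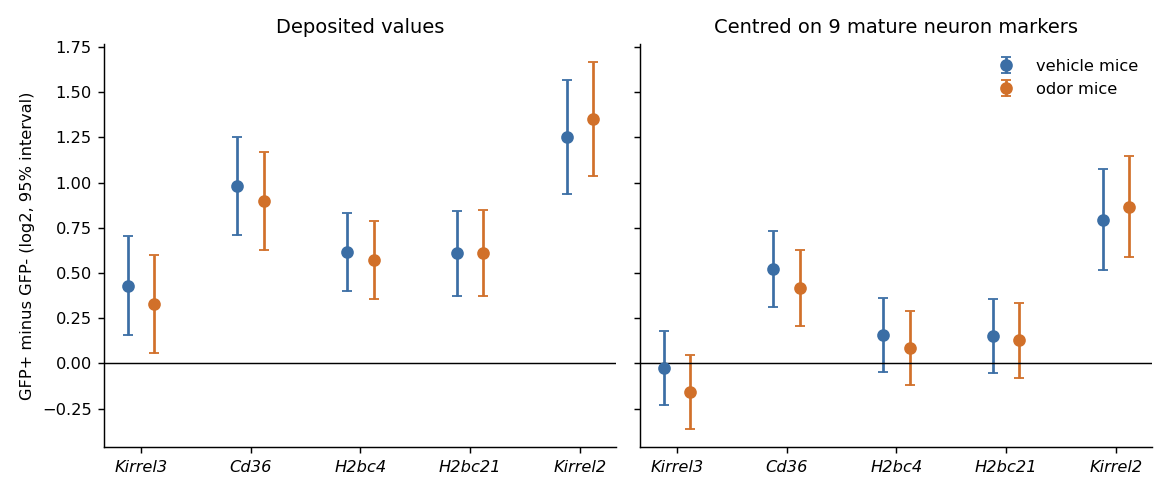
Difference between GFP-positive and GFP-negative cells (log2) with its 95% interval, in vehicle (blue) and odor mice (orange), from the deposited values (left) and with each array centred on 9 mature neuron markers (right). After centring the intervals of Cd36 and Kirrel2 stay above 0, and those of Kirrel3, H2bc4 and H2bc21 include 0.

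Centring on Omp alone gave values between those scales. Cd36 differed by 0.67 and 0.57, H2bc4 by 0.30 (adjusted p 0.0127) and 0.24 (adjusted p 0.0373), and Kirrel3 by 0.12 (adjusted p 0.310) and 0.00 (adjusted p 1.00). Other scalings of the arrays shifted all genes as well. The median gene moved to 0.20 and 0.27 with median centring, where genes called higher and lower numbered 9348 and 2844 in vehicle and 11702 and 3051 in odor mice. It moved to -0.00 and 0.00 with cyclic loess, where they numbered 3857 and 4942, and 3835 and 5286, against 5958 and 3619, and 6687 and 3729, in the deposited values.

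The 6 GFP-negative arrays ranged more widely than the 6 GFP-positive ones for each of the 3 genes. Kirrel3 was highest in odor replicate 2 (10.66), vehicle replicate 2 (10.45) and vehicle replicate 1 (10.39). Cd36 was highest in the same 3 arrays (10.21, 10.02 and 10.30), and so was H2bc4 (10.55, 10.59 and 10.44). Those arrays also had the highest means of mature neuron markers, 12.61, 12.53 and 12.56, and the lowest of myeloid markers, 9.44, 9.48 and 9.47. In odor replicate 3, vehicle replicate 4 and odor replicate 4 the mature neuron mean was 12.39, 12.32 and 12.31 and the myeloid mean 9.75, 9.69 and 10.02. The part that these cell types had in the spread of the 3 genes was not tested.

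**Figure D4:**
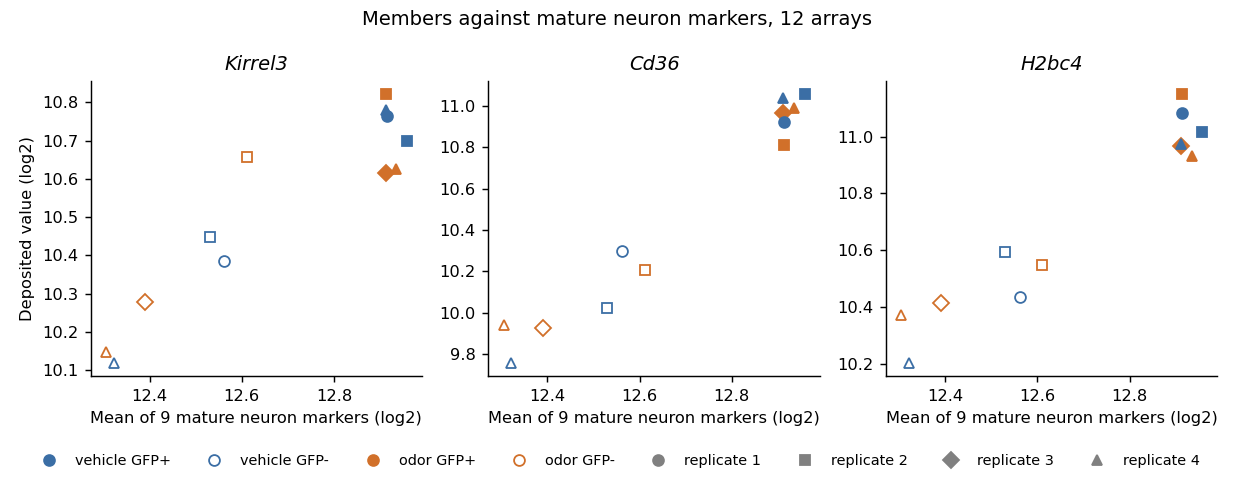
Deposited log2 value of Kirrel3, Cd36 and H2bc4 on each of the 12 arrays (vertical) against the mean of 9 mature neuron markers on that array (horizontal). Filled symbols are GFP-positive and open symbols GFP-negative, blue vehicle and orange odor. The GFP-positive arrays sit together between 12.91 and 12.96, and among the open symbols the 3 arrays at 12.53 and above are the highest for each gene.

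The citrus accord was not accompanied by a detectable change of any of the 3 genes. In GFP-positive cells the difference of odor from vehicle was -0.06 for Kirrel3 (95% interval -0.33 to 0.21), -0.08 for Cd36 (-0.35 to 0.19) and -0.01 for H2bc4 (-0.23 to 0.21), each with adjusted p 1.00 by limma. As folds, these intervals reach from 0.794 to 1.16 for Kirrel3, from 0.784 to 1.14 for Cd36 and from 0.854 to 1.16 for H2bc4. Changes within them were not excluded with 3 arrays a group. The intervals use a spread shared by the 4 groups, are not adjusted over genes and are no limit of detection. The background was as low, with 1 gene or 0.00502% called either way and 1.30% at an unadjusted p under 0.05. The arrays of both treatments overlapped for each of the 3 genes, while 7.93% of all genes had none that did.

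In GFP-negative cells the differences were 0.04 for Kirrel3 (95% interval -0.23 to 0.31, adjusted p 0.950), -0.00 for Cd36 (-0.27 to 0.27, adjusted p 0.999) and 0.04 for H2bc4 (-0.18 to 0.25, adjusted p 0.947). Treatments overlapped again for each gene, while those of 7.44% of all genes did not. No gene was called in that comparison by limma (0.00%), and 6.53% had an unadjusted p under 0.05. The effect of odor on the sort difference, tested as an interaction, was -0.10 for Kirrel3 (SE 0.18), -0.08 for Cd36 (SE 0.18) and -0.04 for H2bc4 (SE 0.14), each with adjusted p 0.991 or above. In that test 0.00502% of genes were called and 4.23% had an unadjusted p under 0.05. H2bc21 and Kirrel2 likewise did not pass in either fraction, with differences of -0.03 and -0.03 for H2bc21 and 0.09 and -0.01 for Kirrel2 (GFP-positive, then GFP-negative cells).

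**Figure D5:**
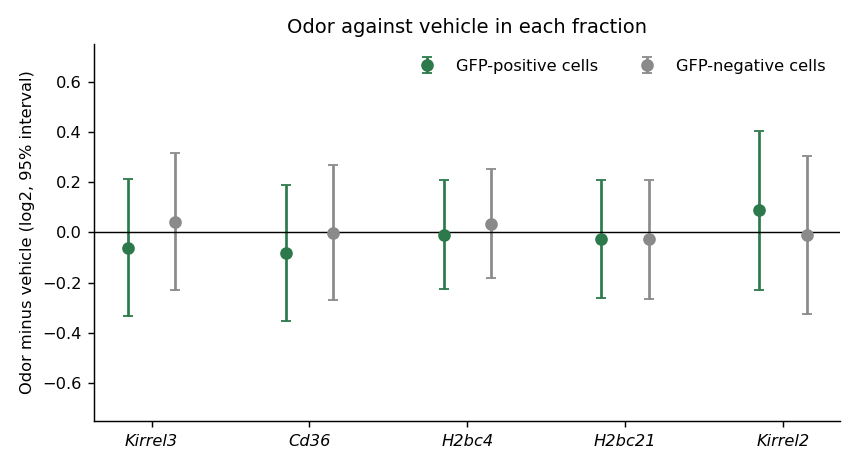
Difference of odor from vehicle mice (log2) with its 95% interval in GFP-positive (green) and GFP-negative cells (grey) for Kirrel3, Cd36, H2bc4, H2bc21 and Kirrel2. Every interval includes 0, and those of Kirrel3, Cd36 and H2bc4 lie between -0.35 and 0.31.

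Over the 12 arrays, the 3 genes were compared with 18266 others by Pearson's r, a description in which the gap between fractions and the shared arrays carry most of the likeness. Kirrel3 was most like Ociad1 (0.984), a gene for an endosomal and mitochondrial protein, then Cep78, Fam3a, Psmb7 and Prrg2, and most opposite to Sla2 (-0.985), an adaptor gene of lymphocytes, Rnase2b and Themis, a T cell gene. Cd36 was most like Sorbs2 (0.995), a cytoskeletal adaptor gene, then Rnf150, Iqcg, the odorant receptor gene Olfr358 and Rp2, and most opposite to Grap2 (-0.990), an adaptor gene of blood cells, Lfng and Mtap. H2bc4 was most like Map3k10 (0.995), a kinase gene, then Xylb, Gas2l1, Gatad2a and Mapre3, and most opposite to Dhrs9 (-0.986), Syne1 and Akap13. Among the reference genes Kirrel3 had r of 0.925 with Omp, 0.919 with H2bc4, 0.865 with Cd36 and 0.824 with Kirrel2. Cd36 had r of 0.960 with Omp and 0.961 with H2bc21, and H2bc4 had r of 0.959 with Omp and 0.937 with H2bc21.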

How the data were processed

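Biotin-labelled cRNA from 50 to 100 ng of total RNA was, per the labels' protocols, hybridised to arrays of the type Mouse Gene 1.0 ST. The authors deposited log2 values per probe set. Per the submitters' processing notes, these came from Affymetrix Expression Console, with version, summarization and scaling of arrays not given in the sources used here. That values are log2 was inferred from their range, 2.42 to 14.1. All 12 columns belong to the samples, and 0 to others. Of 35556 probe sets, 21789 had 1 symbol in the array annotation, and of several for a gene the one with the highest mean was kept, leaving 19938 genes. No filter on low values was applied. Intensity gives no read depth, so precision is limited by the number of arrays.

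The 4 groups were fitted together in limma 3.58.1 (R 4.3.3; lmFit and eBayes, two-sided) without a replicate block and adjusted by Benjamini-Hochberg over all genes at 0.05, in 5 comparisons. The script was tested on simulated data. Tables were made with pandas 2.3.3 and numpy 2.4.6 and figures with matplotlib 3.10.9, in Python 3.11.15. The members and all lists were chosen with earlier results of these data known. The rule names the 3 members, S100a5, Omp, Kirrel2 and H2bc21, for each member the 5 genes most like and the 3 most opposite to it over the arrays, and up to 6 called genes of a list with the largest difference. Nck1 in vehicle mice and Cask in odor mice lie outside it, as do Acsl6 and Slc27a1, and were named after their values were seen.

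Both fractions of a pool come from the same mice and are therefore paired. The deviations of the fractions from their group means correlated with r of 0.07 to 0.25 over 6 pools. Pools are separate groups of mice, and the arrays of a group come from different pools. The p-values of the main fit rest on the spread of arrays within groups, shared by the 4 groups. They do not use the pairing of fractions, which the fits with a block by pool do. Alternatives covered normalization, a filter, the mean over probe sets, array weights, an intensity trend, the samples fitted, blocks and 1 array left out.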

Additional observations from a re-analysis of the deposited data

How the results depend on the processing

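Cd36 and H2bc4 kept the direction and the call of their sort differences under every normalization, filter, weighting and block tried and with each array left out (Cd36 0.85 to 1.12 in vehicle and 0.85 to 0.99 in odor mice, H2bc4 0.51 to 0.71 and 0.50 to 0.62), and H2bc4 lost both calls when arrays were centred on mature neuron markers (0.16 and 0.087). Kirrel3 ranged from 0.33 to 0.50 in vehicle and from 0.22 to 0.48 in odor mice with 1 array left out. Its calls were lost with a second quantile normalization (0.29 and 0.23), cyclic loess (0.14 and 0.047), centring on Omp (0.12 and 9e-05) and, in odor mice, with only both groups fitted (0.33, adjusted p 0.0825), and centring on mature neuron markers reversed it (-0.026 and -0.16). The cause was not tested. The block by pool changed no sort call (Kirrel3 0.43, adjusted p 0.00781, and 0.33, adjusted p 0.0309, with pool as a random block), nor did a block by title or code number. The title number, whose 4 pairs had r of -0.17 to 0.28, and the code number (6 pairs, -0.21 to 0.44) were not taken to pair odor with vehicle pools.

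None of the odor and interaction differences was called, and signs turned near 0. The title-number block gave 0.031 for H2bc4 in GFP-positive and 0.061 for Cd36 in GFP-negative cells. Cyclic loess gave 0.0028 for H2bc4 in GFP-positive cells, and a second quantile normalization -0.0038 for Kirrel3 in GFP-negative cells. Array weights gave -0.052 for Kirrel3 and -0.0099 for H2bc4 in GFP-negative cells and 0.13 for the interaction of Cd36. Centring on mature neuron markers or Omp gave 0.035 and 0.0080 for Cd36 in GFP-negative cells. With 1 array left out, odor differences in GFP-positive cells ran from -0.13 to -0.025 (Kirrel3), -0.12 to -0.026 (Cd36) and -0.076 to 0.033 (H2bc4), those in GFP-negative cells from -0.11 to 0.15, -0.13 to 0.14 and -0.068 to 0.13, and interactions from -0.21 to 0.045, -0.22 to 0.053 and -0.14 to 0.059. Genes called higher across the sort numbered 5958 and 6687 in the deposited values, 1334 and 1119 centred on mature neuron markers (lower: 12851 and 11628) and 2282 and 2010 centred on Omp (lower: 8831 and 7054). Leaving out the odor GFP-negative array of replicate 2 raised the genes called higher by odor in that fraction from 0 to 15, and none of the 3 members was among those called.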

Other observations

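Eph receptors and ephrins, the other adhesion and guidance system known to vary with activity in sensory neuron axons, were found on both sides of the sort. Of 20 measured genes 5 were called higher, 7 lower and 8 did not pass in vehicle mice, and 8 were higher, 7 lower and 5 did not pass in odor mice, with a median difference of -0.10 and 0.02. Over all genes 29.9% and 33.5% were higher and 18.2% and 18.7% lower. The share called higher was thus near the background and the share called lower above it, a difference that was not tested. Centred on mature neuron markers 2 were higher and 12 lower in either treatment. On that scale 6.69% and 5.61% of all genes were higher and 64.5% and 58.3% lower, so these counts were near the background. Epha5 and Epha7, receptors for ephrins of the A class, were higher in GFP-positive cells by 1.35 and 1.27 in vehicle and by 1.37 and 1.21 in odor mice, and stayed called when arrays were centred on mature neuron markers (0.90 and 0.81, and 0.88 and 0.73). Epha4, another A-class receptor, fell by 0.59 in vehicle and by 0.57 in odor mice, and Efnb2, a ligand of the B class, by 0.99 and by 0.76. None of the 20 was called between odor and vehicle mice in either fraction.

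Of 10 other histone genes 2 were called higher and 4 lower across the sort in either treatment, against 29.9% and 33.5% of all genes higher and 18.2% and 18.7% lower. Centred on mature neuron markers none was higher and 8 were lower, against 6.69% and 5.61% of all genes higher and 64.5% and 58.3% lower. Macroh2a2 and Macroh2a1, which encode histones of silent chromatin, were higher in the deposited values by 0.62 and 0.22 in vehicle and by 0.56 and 0.22 in odor mice. Cenpa, the centromeric histone of dividing cells, fell by 1.41 and by 1.40, and H2ax, H2az1 and H2az2, which encode H2A variants, fell by 0.42 to 0.83.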
